A study of Mus musculus with 8 samples.

Results

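The untreated state of a mouse pituitary cell line was described from the 2 RNA-seq libraries taken at 0 h of tamoxifen, of 8 libraries in the series. The cells were AtT-20 cells, an established mouse line labelled as corticotropes, the pituitary cells that secrete corticotropin (ACTH). Both libraries have the genotype ER-Pax7: the cells carry an introduced form of the transcription factor Pax7 that tamoxifen switches on, and none had been given at 0 h. Cells were grown in DMEM with fetal bovine serum and antibiotics. RNA was prepared on columns and cleared of ribosomal RNA. Which promoter drives ER-Pax7, whether the line is 1 clone and whether the 2 replicates were separate cultures is not given here. No other group enters the description, no test was made, and errors are SD over n = 2 libraries that may be technical repeats.

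Corticotropes make one large precursor protein from the Pomc gene and cut it, inside secretory granules, into ACTH and other peptides. The cutting enzymes are prohormone convertases, which act at paired basic residues. The factor Tbx19 (Tpit) defines the Pomc-producing lineages together with Pitx factors. Hypothalamic CRH and vasopressin stimulate corticotropes, and adrenal glucocorticoids hold them back. Melanotropes of the intermediate lobe also express Pomc but use the convertase Pcsk2 to cut ACTH further, and Pax7 specifies that fate.

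The stretch of Pomc that codes for ACTH is shown because the level of Pomc and of the enzymes that cut at its borders are the leading values below. It lies in 1 exon of Pomc at chr12:3960124-3960252 (GRCm38, plus strand, GENCODE M21 transcript sequence). It runs for 129 bases from codon 122 to codon 164 of the 235 codons of the precursor. Capitals mark codons for lysine or arginine that stand in runs of at least 2.
Pomc, ACTH stretch: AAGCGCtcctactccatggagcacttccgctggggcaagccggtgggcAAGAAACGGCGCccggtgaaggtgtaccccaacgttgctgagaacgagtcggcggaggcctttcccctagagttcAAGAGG
The first and the last run bound the 39 codons of ACTH. The run between them is the place where ACTH is divided in melanotropes.

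Each value is a signal: reads per base, averaged over the joined exons of a gene and scaled by the authors. It is per length of all joined exons of a gene, whichever of them the cells use. Comparisons of signals between genes, and against a fixed level, are therefore rough. Summed signal was 164236 and 174285 in replicates 1 and 2, and 9576 and 9516 genes reached a signal of 1. The 10 highest of all genes held 50.5% and 52.1% of the sum. They are the small non-coding RNAs Rn7s1, Rn7s2, Rn7s6 and Rn7sk, 5 entries annotated as miRNA and 1 gene model without a match in GENCODE M21, and they are left aside below. Read depth is not given, so a signal near 0 carries no counting interval. All 26 genes of a housekeeping list were above 1.

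Of the 5 corticotrope markers, 5 had a signal above 1, but they were chosen with earlier results of these data known. Melanotropes also express Pomc and Tbx19, and the corticotrope receptor genes Crhr1 and Avpr1b were low, as given below. Of 21897 coding genes, 7821 (35.7%) had a mean of at least 1 and 4932 (22.5%) were listed at 0 in both libraries. Pomc (ENSMUSG00000020660.6, chromosome 12, 3954951 to 3960642) had a signal of 634 and 623, a mean of 629 ± 7.67. It ranked 3rd of 21884 nuclear coding genes and held 1.19% and 1.14% of their summed signal. Pomc stood 5.43 times above the actin gene Actb and 4.59 times above Chga, the next of the markers. Chga, which codes for the granule protein chromogranin A, was at 137 in both libraries (SD 0.564). Chgb, the related secretogranin I gene, was at 87.7 and 87.3. Tbx19 (chromosome 1, 165137855 to 165160773) was at 18.7 and 17.7, and Pcsk1, the convertase that frees ACTH, at 17.8 and 19.7. The markers thus lay in the order Pomc, Chga, Chgb and then a pair, Pcsk1 and Tbx19, whose ranges over the 2 libraries overlap.

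Few hormone genes of the lists reached the level beside Pomc. Pomc was the single member of 7 pituitary hormone genes at a signal of 1 or more. Growth hormone (Gh), prolactin (Prl) and the beta chains of thyrotropin and follitropin (Tshb and Fshb) were listed at 0 in both libraries. Cga, the alpha chain shared by those glycoprotein hormones, was listed at 0 in replicate 1 and at 0.00911 in replicate 2. Lhb, the lutropin beta chain, was at 0.195 and 0.218, and over 10% of its exonic bases lie inside exons of another gene. Among 53 other peptide hormone genes 4 (7.55%, against 35.7% of all coding genes) reached 1, and 29 were listed at 0. They were Stc2 (stanniocalcin 2) at 7.35 and 7.45, Adm (adrenomedullin) at 1.78 and 2.01, Sct (secretin) at 1.70 and 1.67 and Pmch at 1.46 and 1.35, the last with shared exonic bases. Fgf21, a metabolic hormone gene that is in neither list and was named after its value was seen, was higher than these 4, at 32.0 and 32.4. Hypothalamic Crh and Avp, named in the same way, were among those listed at 0.

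Most genes of the enzymes that process Pomc were present, and Pcsk1 far exceeded Pcsk2. The processing list had 12 of 19 members at 1 or more, or 63.2% against 35.7% of all coding genes. Its median signal was 1.60 against 0.322 over all coding genes. Cpe, the carboxypeptidase that trims basic residues after the cut, was highest at 76.6 and 72.3. Scg5, the chaperone of Pcsk2, had a mean of 13.5 ± 0.621 and Pam, which amidates peptide ends, one of 7.45 ± 0.400. Pcsk1n, the precursor of a Pcsk1 inhibitor, had 6.37 and 6.95. Pcsk2 (chromosome 2, 143546156 to 143816285) was at 0.325 and 0.294, so the ratio of Pcsk1 to Pcsk2 signal was 54.7 and 67.0. Signal of the chaperone of Pcsk2 thus lay well above that of the enzyme itself. Of the other named members, Mbtps1, a convertase of the secretory route, was at 5.36, and Furin, which cuts at basic sites in the Golgi, at 1.35. Ctsl and Ctsb, lysosomal proteases, had means of 12.5 and 2.86, both with over 10% of exonic bases shared.

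The start regions of Pomc and the convertase pair are shown because these genes span the range from 629 to 0.309 and the series title concerns DNA demethylation. Each holds 300 bases, 250 before and 50 after the RefSeq start site (build GRCm38.p6, plus strand). Capitals mark CG, the dinucleotide that carries most DNA methylation in mammals.
Pomc, chr12:3954695-3954994: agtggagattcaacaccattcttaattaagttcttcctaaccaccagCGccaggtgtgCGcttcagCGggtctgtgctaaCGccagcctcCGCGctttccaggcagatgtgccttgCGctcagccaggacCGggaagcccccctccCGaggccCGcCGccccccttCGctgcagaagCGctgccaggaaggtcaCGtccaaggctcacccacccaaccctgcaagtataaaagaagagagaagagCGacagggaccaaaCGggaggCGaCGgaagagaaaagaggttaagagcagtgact
Pcsk1, chr13:75089607-75089906: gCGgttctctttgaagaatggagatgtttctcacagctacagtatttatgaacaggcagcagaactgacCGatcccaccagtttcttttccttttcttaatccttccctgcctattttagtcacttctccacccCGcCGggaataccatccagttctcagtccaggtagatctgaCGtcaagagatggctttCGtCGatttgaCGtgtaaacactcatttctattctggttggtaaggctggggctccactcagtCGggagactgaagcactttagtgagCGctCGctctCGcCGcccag
Pcsk2, chr2:143545883-143546182: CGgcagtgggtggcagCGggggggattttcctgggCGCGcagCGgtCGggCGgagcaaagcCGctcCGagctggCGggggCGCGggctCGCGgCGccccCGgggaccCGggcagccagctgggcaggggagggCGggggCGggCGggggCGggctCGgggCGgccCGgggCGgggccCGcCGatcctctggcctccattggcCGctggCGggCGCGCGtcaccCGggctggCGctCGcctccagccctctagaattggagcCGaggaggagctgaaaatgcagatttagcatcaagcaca
The Pomc window held 18 CG, that of Pcsk1 13 and that of Pcsk2 36. CG reads the same on both strands, and 94.6% of the 32851 mouse windows of this length in the RefSeq table hold at least 1, with a median of 7. The order of these counts did not follow the order of signal, and 3 genes picked by their levels cannot show a relation. These counts describe sequence only, and methylation was not analysed here.

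The machinery that stores and releases peptides was broadly present. Of 33 granule genes, 23 had a mean of at least 1, or 69.7% against 35.7% of all coding genes. Their list had a median signal of 4.26. After the chromogranins came Scg2 (secretogranin II) at 14.4 and 13.6. Snap25, a membrane fusion protein of granules and synaptic vesicles, was at 12.7 in both libraries. Scg3, a granin that binds chromogranin A, had 9.31 and 9.73. Nucb1 was at 11.6, Cplx2, a complexin, at 9.03 and Syt7, a calcium sensor of exocytosis, at 7.85. Cadps2, a granule priming factor named after its value was seen, was listed at 0, while its relative Cadps had 0.567 and 0.522.

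Most listed regulators of Pomc were present, but several lineage factors among them lay below a signal of 1, as given below. The list also holds cofactor and signal genes, such as Hdac2 and Stat3. Of 20 regulators of Pomc or of the corticotrope lineage, 13 had a mean of at least 1, or 65% against 35.7% of all coding genes. The median of the 20 was 3.70. Tle5, a short member of the Groucho family, was at 27.3 and 26.6, and the histone deacetylase gene Hdac2 at 12.3 and 12.1. Insm1, a zinc finger factor of endocrine cells, had 5.82 and 5.21. Neurod1, the partner that binds the Pomc promoter with Pitx and Tbx19, was at 4.28 and 4.27, so Tbx19 signal was 4.26 times that of Neurod1. Pitx1 (chromosome 13, 55825051 to 55836192) was at 1.88 and 1.83, with over 10% of its exonic bases shared.

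The remaining regulators ran from mid level to none. Stat3, which carries the LIF and IL-6 signal to Pomc, was at 4.66 and 4.69, the chromatin remodeller gene Smarca4 at 4.01 and 4.31 and the ETS factor gene Etv1 at 3.65 and 3.35. Nr4a2 (Nurr1) was at 3.98 and 3.80, while its relatives Nr4a1 (Nur77), the factor through which CRH acts on Pomc, and Nr4a3 were at 0.575 and 0.372 and at 0.148 in both. Nr2f2 had 1.31 and 1.25. Pax6 was at 0.848 and 0.858 and Lhx3, a LIM factor of the early pituitary, at 0.549 and 0.678. Lhx4 was at 0.0199 and 0.0523, and Isl1 was listed at 0.

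Factors of the other pituitary lineages were mostly low. Of 20 such factors 4 reached 1, which is 20% against 35.7% of all coding genes. Rbpj, the nuclear effector of Notch, had a mean of 3.52, and Six6, a homeobox factor of the eye and pituitary, was at 3.27 and 3.14. Gata2, which acts in thyrotropes and gonadotropes, was at 1.80 and 1.82. Several defining factors, named after their values were seen, were at or near 0. Pou1f1 (Pit1), which specifies somatotropes, lactotropes and thyrotropes, was at 0.00188 and listed at 0. Nr5a1 (SF1), the gonadotrope factor, was at 0.0722 and 0.0621. Hesx1, Sox3, Foxl2 and Otx2 were listed at 0 in both libraries.

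**Figure D1:**
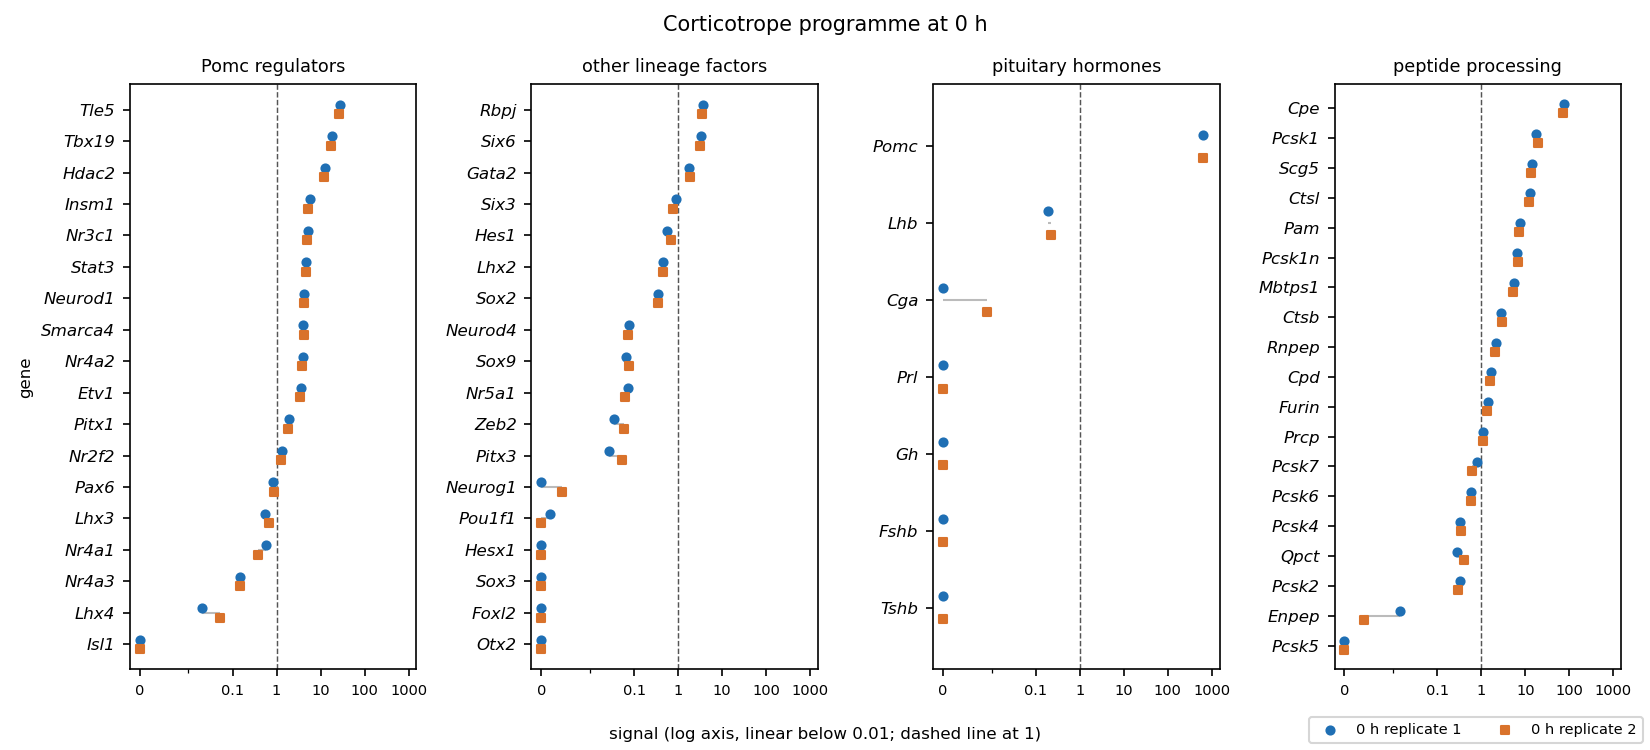
Signal of reported genes of 4 lists in 0 h replicate 1 (circles) and replicate 2 (squares), on an axis that is logarithmic above 0.01 and linear below it, with a dashed line at 1. Pomc, at 634 and 623, stands alone among the hormones, and most regulators lie to the right of the line while most factors of other lineages lie to its left.

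Of 10 melanotrope markers 3 reached 1 before ER-Pax7 was activated, or 30% against 35.7% of all coding genes, and Pax7 is 1 of the 3. Pax7 (chromosome 4, 139737062 to 139833528) had 12.9 and 13.3, and part of this signal may come from the introduced ER-Pax7 itself. Megf11 was at 4.58 and 4.67 and Pkib, a protein kinase A inhibitor gene, at 1.26 and 1.40. Scn2b, a sodium channel subunit, was at 0.663 and 0.654, and Pcsk2 has been given above. Rbfox3, Esm1, Oacyl and Oprl1 had means of 0.0256, 0.0202, 0.0150 and 0.00147. Drd2, the dopamine receptor that restrains melanotropes, was listed at 0 in both libraries. Pax7 was also the single member of 9 PAX genes at 1 or more.

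Few genes in the list of hypothalamic and feedback receptors reached the level, and not all of that list are receptors of corticotropes. Of its 51 members 6 had a mean of at least 1, or 11.8% against 35.7% of all coding genes, and 20 were listed at 0. Those at 1 or more are the glucocorticoid receptor Nr3c1, 3 receptor chains for cytokines or insulin and a pair of somatostatin receptors. Nr3c1 (chromosome 18, 39410545 to 39519421) was at 5.07 and 4.93. Tnfrsf1a, a TNF receptor, was at 4.88 and 4.59, and Il6st, the gp130 chain shared by IL-6 and LIF, at 3.32 and 3.22. Insr, the insulin receptor, was at 3.06 and 2.25, the widest spread of the 6. Sstr2 was at 2.45 and 2.51 and Sstr5 at 1.71 and 1.66. The ranges of Insr and Sstr2 overlap, so their order is not settled by these libraries.

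The receptors for the main stimulating hormones were at or near 0. Crhr1, the CRH receptor of corticotropes, was at 0.129 and 0.0915, so mean Sstr2 signal was 22.5 times that of Crhr1. Avpr1b, the pituitary vasopressin receptor, was listed at 0, as were Avpr1a and Crhr2. The mineralocorticoid receptor Nr3c2 was listed at 0 in both libraries. Among those between 0.1 and 1 were Sstr3 (mean 0.508), Lifr (0.441) and Il1r1 (0.292), beside Crhr1. The LIF receptor chain was therefore lower than its partner Il6st, and Il6ra, the IL-6 binding chain, was at 0.0424 and 0.0325. For scale, 99% of 1138 olfactory receptor genes had a mean of 0.0512 or less.

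Of the 51 receptors of that list 40 had a mean under 0.1. Vipr1, Mc1r, Galr2, Vipr2 and Adrb3 had means between 0.0813 and 0.0976. Lepr (0.0292), Drd3 (0.0188), Galr3 (0.0138), Avpr2 (0.0125), Egfr (0.00962), Ghrhr (0.00725) and Adra2a (0.00677) followed. Gnrhr, Adra1d, Drd1, Oxtr, Trhr, Adra1b and Adcyap1r1 had means of 0.00150 or less. The ACTH receptor Mc2r and its relatives Mc3r, Mc4r and Mc5r were listed at 0. Also at 0 were Sstr1, Sstr4, Drd2, Drd4, Drd5, Adra1a, Adra2b, Adra2c, Adrb1, Ghsr, Trhr2 and Galr1. Of 33 cAMP and calcium genes of the messenger system beneath the receptors, 18 reached 1, or 54.5% against 35.7% of all coding genes. Gnas, the stimulatory G protein, was at 166 and 162, with over 10% of exonic bases shared. Prkar1a, a regulatory subunit of protein kinase A, was at 36.0 and 33.6, and the catalytic subunit genes Prkacb and Prkaca had means of 7.73 and 3.96. Gna11 (11.7), Gnai2 (10.6), Prkar2b (3.95), Gnai3 (3.40) and Gna13 (3.29) were the other highest members.

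Of 158 further G protein-coupled receptors 11 reached 1, or 6.96% against 35.7% of all coding genes, and 64 were listed at 0. Ffar4, a receptor for long-chain fatty acids, was highest at 11.7 and 11.5. It stood 2.31 and 2.33 times above Nr3c1. Adgrg1, an adhesion receptor, was at 3.21 and 2.90, Ptger1, a prostaglandin receptor, at 3.04 and 2.83 (with shared exonic bases) and the calcium-sensing receptor Casr at 2.01 and 1.99. Adgrb1 (1.77), Adgrl1 (1.67), Gper1 (1.25) and Grm4 (1.06) followed.

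Of 49 nuclear receptors 15 reached 1 and 10 were listed at 0. These shares, 30.6% and 20.4%, are near the 35.7% and 22.5% of all coding genes. Esr1, the estrogen receptor, was at 16.0 and 16.5 and may hold reads of the introduced gene, since ER-Pax7 carries an ER part. Nr3c1 and Nr4a2 came next. They were followed by Nr2f6 (3.28), Rxrb (2.41), Nr1d2 (2.15), Nr2c2 (1.86) and Esrra (1.35), of which Nr2f6 and Nr2c2 have over 10% of exonic bases shared. The progesterone receptor Pgr and the fat cell receptor Pparg, named after their values were seen, were listed at 0.

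Of 58 receptor tyrosine kinases 12 reached 1, or 20.7% against 35.7% of all coding genes. Fgfr1, an FGF receptor, was at 4.94 and 4.60, followed by Lmtk2 (3.51), Ryk, a Wnt receptor (3.23), Ephb3 (2.93), the collagen receptor Ddr1 (2.88), Insr and Ephb2 (1.93). Igf1r, named after its value was seen, was listed at 0 in both libraries although its merged exons span 16791 bases, and Igf2r was at 2.64 and 2.67. Of 59 cytokine and TGF beta family receptors 19 reached 1, a share of 32.2% that is near that of all coding genes. They were led by the interferon gamma receptor chain Ifngr2 at 5.98 and 5.35. Tnfrsf1a, Il13ra1 (3.96), Tnfrsf12a (3.79 and 3.21), Il6st, Il10rb (3.10, with shared bases), Bmpr1a (2.93) and Il1rap (2.31) followed. Tgfbr1 had a mean of 1.81 while Tgfbr2, the chain that binds TGF beta, was listed at 0 and at 0.000605.

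**Figure D2:**
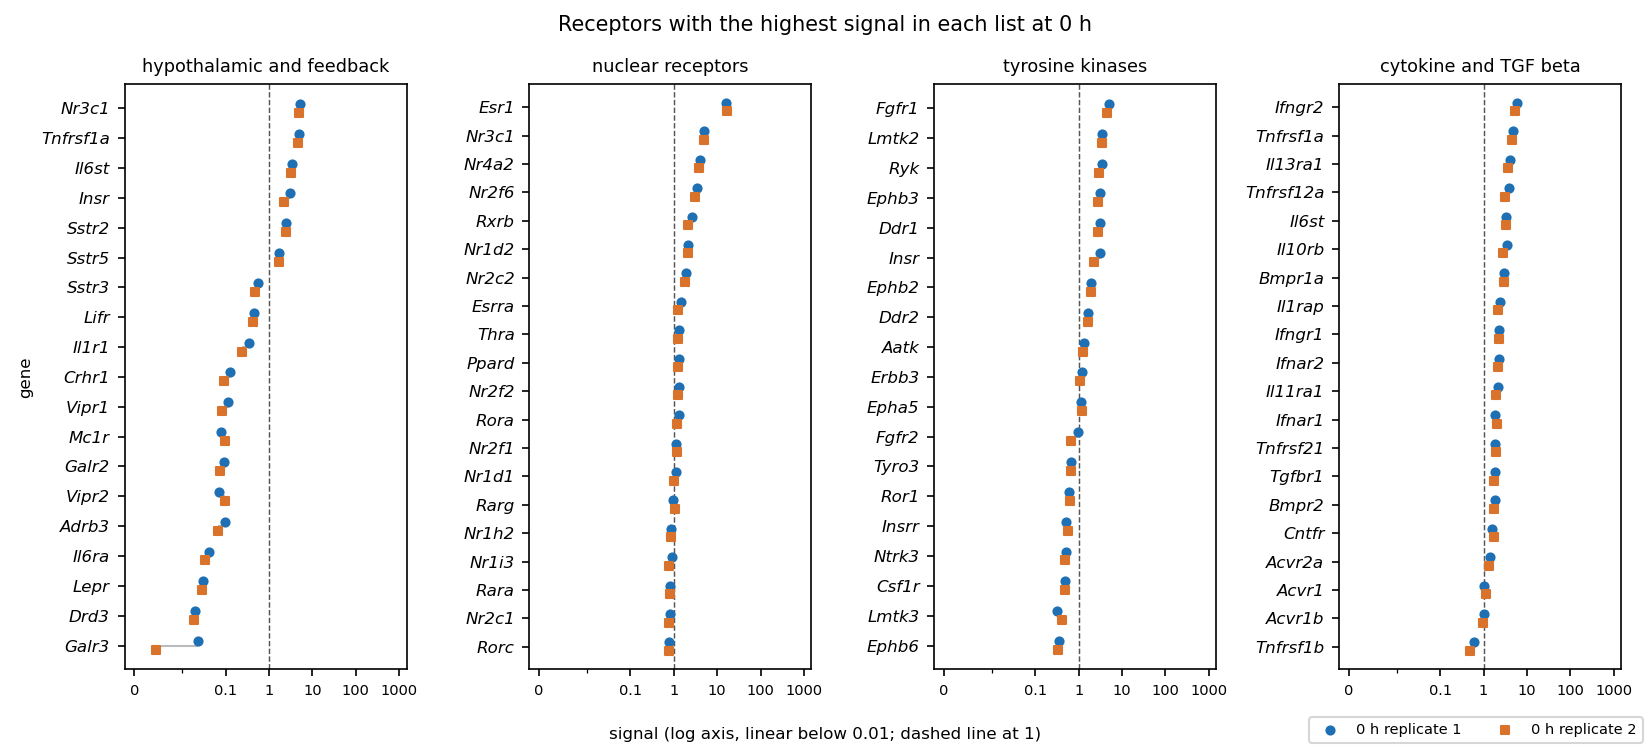
Signal of the highest reported members of 4 receptor lists in 0 h replicate 1 (circles) and replicate 2 (squares), on an axis that is logarithmic above 0.01 and linear below it, with a dashed line at 1. The hypothalamic and feedback list crosses the line after Sstr5, and Crhr1 lies near 0.1.

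Ion channels gave few members at this level. Kcnk1, a pore pair potassium channel, was highest with a mean of 12.3, with Kcnk3 at 2.28 and 2.22, Kcnk16 at 2.26 and 2.18 and Kcnj3 at 2.07 and 1.97. Of 40 voltage-gated potassium channels 4 reached 1, or 10% against 35.7% of all coding genes. Among the 4 were Kcnh6 at 1.75 and 1.72 and Kcnh2, which repolarises the membrane, at 1.75 and 1.48. No pore gene of 10 sodium and 10 calcium voltage-gated channels reached a mean of 1. Cacna1a came nearest, at 0.916 and 1.05, so replicate 2 alone was above 1. The voltage-gated counts depend on the level: at a level of 0.5 they were 8 for potassium, 1 for sodium and 3 for calcium. Among ligand-gated channels the NMDA receptor subunit Grin1 (3.09, with shared bases), the ATP-gated P2rx3 (1.91) and the nicotinic subunit Chrnb2 (1.14, with shared bases) were the highest of their families.

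Genes that neuroendocrine cells share with neurons were largely present. Of 24 neuronal markers 15 reached 1, or 62.5% against 35.7% of all coding genes, and all 15 were above 1 in both libraries. Uchl1 was at 34.3 and 31.9 (with shared bases), Ddc, a decarboxylase of dopamine and serotonin synthesis, at 13.3 and 12.5 and Nefl, a neurofilament chain, at 11.1 and 10.5 (with shared bases). Tubb3, neuronal beta tubulin, was at 13.8 and 26.3, one of the few genes whose libraries differed widely. Its neighbour Def8 was higher in replicate 2 as well, and what this shared difference comes from was not tested. Ncam1, Syp and Gap43 had means of 8.81, 7.28 and 6.89. Some genes of transmitter neurons were at or near 0, unlike Ddc above. Named after their values were seen, Gad1 and Slc32a1 were listed at 0, and Th was at 0.0251 and 0.0774.

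In bulk RNA, fewer cells of a type and less RNA per cell cannot be told apart. Markers of the other cell types that a culture could hold were low, with exceptions in epithelial and liver genes. None of 12 fibroblast, 12 immune, 8 endothelial, 12 myogenic and 19 germline genes reached 1, and their highest members had means of 0.430, 0.484, 0.203, 0.884 and 0.156. The summed signal was 0.677 and 0.770 over the fibroblast list and 0.739 and 0.740 over the immune list. The intermediate filament gene Vim, a fibroblast marker that many cultured lines express, was at 0.0271 and 0.0504. Of 11 epithelial and folliculostellate genes 4 reached 1, a share of 36.4% that is near the 35.7% of all coding genes. Krt8 was at 19.8 and 23.4 and Krt18 at 9.04 and 8.16. Cdh2 (N-cadherin) was at 4.09 and 3.82 and Epcam at 2.85 and 2.99. Among all 53 keratins Krt7 (13.5) and Krt23 (5.99) joined these. Cdh1 (E-cadherin) and S100b, a marker of folliculostellate cells, were at 0.0167 or less in each library. Of 14 erythroid and liver genes, Ahsg and Fetub, plasma proteins of the fetuin family, had means of 14.1 and 7.15. Alb and Afp, the defining liver genes, were listed at 0.

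Cell cycle genes were expressed nearly as a whole, with 21 of 23 (91.3%) at 1 or more, against 35.7% of all coding genes. Their median was 6.51. Pcna, the sliding clamp of DNA synthesis, was at 40.1 and 39.8, Top2a, a topoisomerase of dividing cells, at 24.7 and 23.4 and Mki67, a marker of cycling cells, at 13.5 and 12.7. Mcm7 (15.4, with shared bases), Cdk1 (11.1), Mcm2 (9.92), Mcm5 (8.74) and Mcm3 (8.64) were the other highest members. The D cyclins, named after their values were seen, went different ways: Ccnd3 was at 1.39 and 1.54, Ccnd1 at 0.213 and 0.193, and Ccnd2 was listed at 0. Brakes on the cycle were present alongside, with 13 of 18 (72.2%) at 1 or more. Cdkn1a (p21) was at 11.4 and 10.8, Cdkn2c at 8.51 and 8.35, Trp53 at 6.42 and 6.56 and Cdkn1b (p27) at 4.90 and 5.11. Cdkn2d (3.87), Stk11 (3.40) and Men1 (3.38) followed.

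Among the genes of DNA methylation, Dnmt1 and its partner Uhrf1 were highest, and the de novo and TET enzymes were lower. Of 18 genes 13 reached 1, or 72.2% against 35.7% of all coding genes, with a median of 1.58. Dnmt1, which copies methylation after replication, was at 11.9 and 11.1, and its partner Uhrf1 at 6.14 and 5.70. Dnmt3a, the de novo enzyme, was at 1.61 and 1.46 and Dnmt3b at 0.182 and 0.198, while Dnmt3l was listed at 0. Among the TET enzymes, which oxidise methylcytosine, Tet3 was highest at 1.42 and 1.52, Tet2 was at 0.494 and 0.520 and Tet1 at 0.313 and 0.325. The order Tet3, Tet2, Tet1 held in both libraries without overlap, and Dnmt1 signal was 8.40 and 7.33 times that of Tet3. The ranges of Tet3 and Dnmt3a overlapped. Tdg, the glycosylase that removes oxidised bases, was at 3.60 and 3.25. The readers Mbd2 and Mbd3 had means of 4.42 and 4.29, and Mbd1, Zbtb38 and Mbd4 had 2.36, 1.62 and 1.01. Uhrf2 was at 2.83, the remodeller gene Hells at 2.41 and Apobec1 at 0.00179.

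Of 25 genes of imprinting and X inactivation 10 reached 1, or 40% against 35.7% of all coding genes, and 5 did with overlapping genes left out. After Gnas came Plagl1, a growth-limiting zinc finger factor, at 7.78 and 7.69 and Rtl1, a retrotransposon-derived gene of the Dlk1 cluster, at 4.97 and 4.79. Mest and Cdkn1c had means of 2.99 and 2.98, both with shared bases, and Igf2r 2.66. H19, Igf2, Magel2 and Ndn, named after their values were seen, were listed at 0, and Meg3, the RNA of the same cluster as Rtl1, was at 0.0371 and 0.0309. Xist, the X inactivation RNA, was at 3.93 and 5.14 and its antisense partner Tsix at 1.93 and 2.76. They share exonic bases, and use of strand in counting is not given, so they cannot be told apart. Of 175 coding genes on the Y chromosome 2 had a mean of at least 1, and the Y genes Ddx3y and Eif2s3y, named after their values were seen, were listed at 0.

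In each transcription factor family below the share of members at 1 or more, from 2.56% to 29.5%, was lower than the 35.7% of all coding genes. Of 16 T-box genes Tbx19 and Tbx1 (3.92) reached 1. Of 44 forkhead genes 13 did, led by Foxk2 (6.05), Foxa1 (4.13), Foxj3 (3.49), Foxo3 (3.23) and Foxp1 (3.20). Sox4 (3.41) and Sox11 (2.12) were the 2 of 19 SOX genes, Gata2 the 1 of 6 GATA genes, Lmx1b (1.31) the 1 of 12 LIM homeobox genes and Pou2f1 (1.39, with shared bases) the 1 of 15 POU genes. Of 39 genes of the Hox clusters Hoxd8 alone reached 1, at 2.82 and 2.63. Of 392 zinc finger genes named Zfp, 105 reached 1 (26.8%), 226 lay between 0.1 and 1 and 17 were listed at 0. That family therefore had a smaller share at 1 or more than all coding genes but a higher median, 0.603 against 0.322. It was seldom listed at 0, at 4.34% against 22.5% of all coding genes.

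Several families were listed at 0 for the most part. Of 1138 olfactory receptors none reached 1 and 972 (85.4%) were listed at 0, the highest being Olfr330 at 0.405 and 0.444. Vomeronasal receptors gave 275 of 351 at 0, taste receptors 32 of 38 and trace amine receptors 15 of 15. Defensins (67 of 70), keratin-associated proteins (51 of 57) interferon ligands (17 of 21) and immunoglobulin and T cell receptor segments (399 of 488) were also mostly at 0. Olfactory and vomeronasal receptors together made up 25.3% of all coding genes listed at 0, and without them 18.1% of coding genes were at 0 and 38.3% at 1 or more. Chemokines had 1 of 38 members at 1 or more, Cxcl12 at 3.36 and 3.75. At the other end 80 of 83 ribosomal protein genes reached 1, with a median of 29.3, and 2 were listed at 0.

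**Figure D3:**
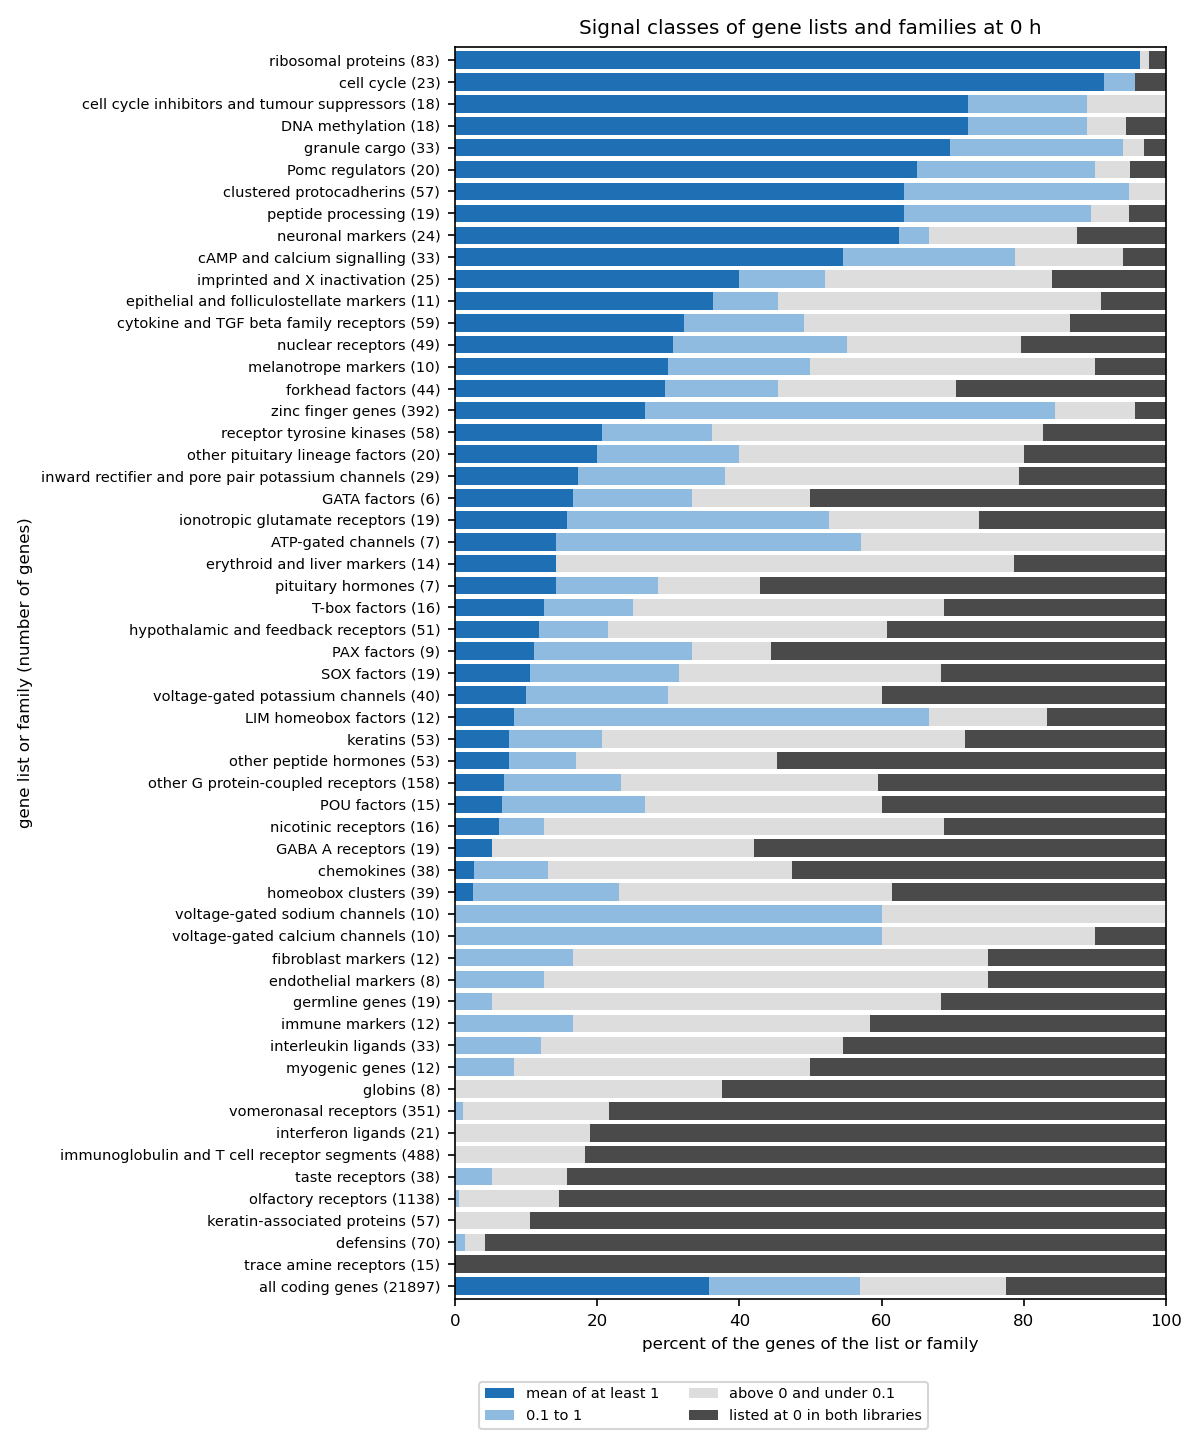
Share of the genes of gene lists and families with a mean signal of at least 1, of 0.1 to 1, above 0 and under 0.1, or listed at 0 in both 0 h libraries, with the number of genes in parentheses and all coding genes in the last bar. Of the sets drawn, which leave out corticotrope markers, the housekeeping list and mitochondrially encoded proteins (all at 100%), ribosomal proteins lead with 96.4% at 1 or more, and trace amine receptors are listed at 0 as a whole.

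Across coding genes the signal was concentrated in few members. There were 7049 coding genes between 1 and 10, 694 between 10 and 100 and 78 at 100 or above, and the median of those at 1 or more was 2.62. The 13 proteins coded in the mitochondrial genome, subunits of the respiratory chain, ran from mt-Nd6 at 31.8 and 35.9 to mt-Co1 at 323 and 355. They made up 3.65% and 3.88% of the summed coding signal. Among nuclear genes the top ranks held translation and ubiquitin genes beside Pomc, with the elongation factor gene Eef1a1 at 438 and 423 and the polyubiquitin gene Ubb at 219 and 216. The glycolytic enzyme gene Aldoa was at 196 and 185, the thymosin precursor gene Ptma at 189 and 180 and the ribosomal genes Rplp0 and Rpl41 at 180 and 173 and at 174 and 170.

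Not every high value belongs to the named gene alone. The highest, Ccnb1ip1 at 1206 and 1305, shares 12.4% of its exonic bases with other genes, among them Rpph1, the RNA of ribonuclease P, at a mean of 1086. Ccdc107, at 714 and 640, shares 8.02% of its bases, and Rmrp, the RNA of ribonuclease MRP, with which it overlaps, was at 556. The 10 coding genes between Rn7s1 and Rn7s2 on chromosome 12, all among the highest 25, ran from 69.9 to 115 in replicate 1 and from 314 to 328 in replicate 2. They are Gm49383, Rpl36al, Mgat2, Klhdc2, Gm49384, Dnaaf2, Nemf, Lrr1, Klhdc1 and Pole2, and Rn7s1 and Rn7s2 themselves had means of 12823 and 13203. That stretch held 1.44% and 5.82% of the nuclear coding signal. With overlapping genes left out, and with histones, that stretch and genes that touch a higher one left out, Pomc ranked 2nd, after Ccdc107.

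Replication-dependent histone genes, whose transcripts mostly lack poly(A) tails and are kept by ribosomal depletion, held 12.2% and 11.9% of the nuclear coding signal. Of 64 such genes 63 reached 1, with a median of 95.1. The highest 5 were H2ac19 at 234 and 233, H2ac18 at 218 and 219, Hist1h2bq at 228 and 197, H2bc12 at 194 and 192 and H3c11 at 175 and 173, of which the first pair has all exonic bases inside exons of other genes. Other genes beside them were high in places: of 10 non-histone genes within 10 kb that share no exonic bases, pseudogenes left out, 4 had a mean of at least 10. These were Gm11274 (91.8), Hfe (55.1), Gm38227 (47.0) and Gm20627 (46.9), and they were singled out after their values were seen. Hfe, an iron regulator gene, was at 43.7 and 66.6. What part of the histone values such neighbourhoods hold was not tested.

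**Figure D4:**
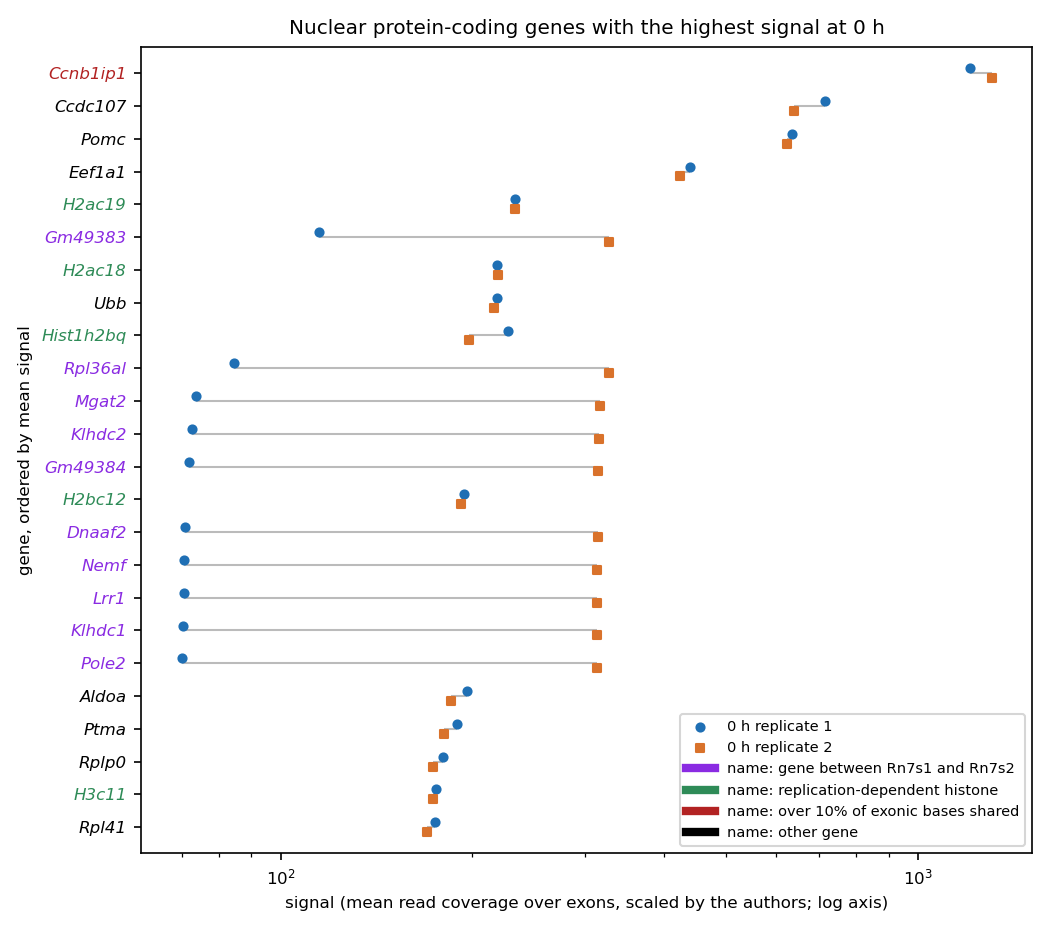
Signal of reported genes among the 25 highest nuclear coding genes in 0 h replicate 1 (circles) and replicate 2 (squares) on a log axis, with names coloured by kind. The 10 genes between Rn7s1 and Rn7s2 lie from 69.9 to 115 in replicate 1 and above 300 in replicate 2, while Pomc, Eef1a1 and Ubb keep their 2 points close together.

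The libraries otherwise lay close. Over the 7821 coding genes at 1 or more, Pearson's r of log2(signal + 1) was 0.994 and Spearman's rho of signal 0.988, across genes, which are not independent replicates. The higher library exceeded the lower by a median factor of 1.05 and, for 95% of genes, by less than 1.23. In all, 35 of these genes were over 1.5 times apart and 17 over 2 times, and 10 of the 17 lie between Rn7s1 and Rn7s2. Def8 on chromosome 8 had the largest ratio among genes at a mean of 5 or more, 2.64 against 12.2. Its neighbour Tubb3 ranked next outside the chromosome 12 stretch. H1f6, at 33.7 and 55.5, H2ac6, at 34.6 and 54.2, and Hfe, all in 1 histone cluster on chromosome 13, were higher by 21.7, 19.6 and 22.9 in replicate 2. Def8 and Tubb3 were higher by 9.61 and 12.5 in replicate 2, and between Rn7s1 and Rn7s2 the difference ran from 213 for Gm49383 to 244 for Nemf. Neighbouring genes thus differed by similar amounts, and the origin of these offsets was not tested, so the values of the genes concerned are uncertain.

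**Figure D5:**
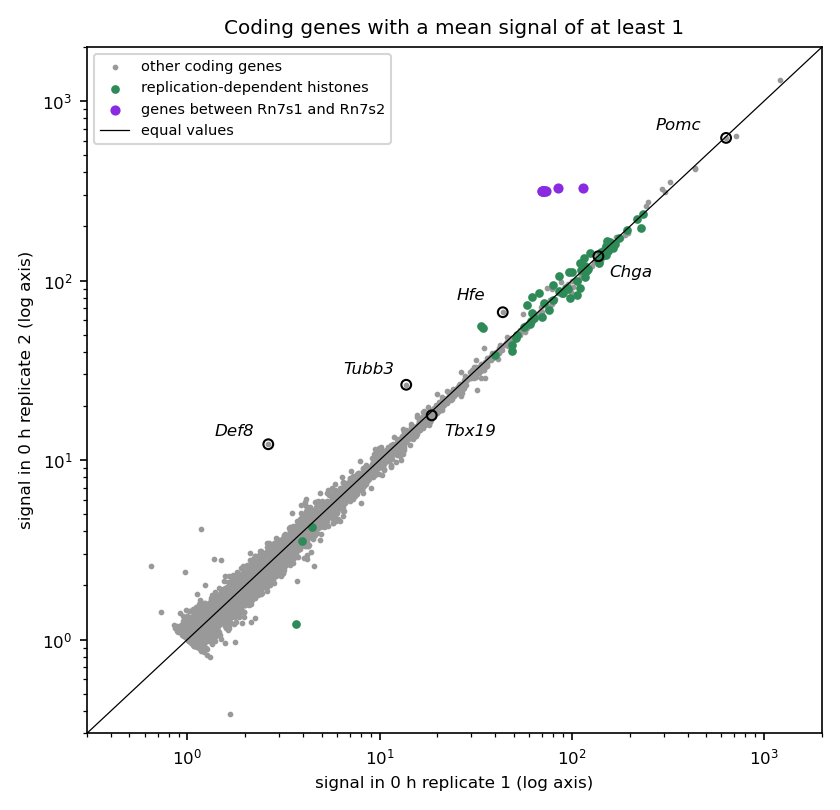
Signal of each coding gene with a mean of at least 1 in 0 h replicate 1 (x) and replicate 2 (y), both on log axes, with the line of equal values. Most points follow the line, the genes between Rn7s1 and Rn7s2 lie far above it, and Def8, Tubb3 and Hfe are circled with Pomc, Chga and Tbx19, which lie on it.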

How the data were processed

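RNA-seq of ER-Pax7 AtT-20 cells at 0 h of tamoxifen (2 libraries) was described; the other 6 libraries were not used. The deposited values are a signal, coverage per base averaged over the joined exons of each of 55401 genes and scaled by the authors by a rule not given in the sources used here. Its low values come in steps, so read depth and counting error are unknown. The submitters' processing notes list HISAT2 2.2, SAMtools 1.12 and deepTools 3.5, with mm10 and GRCm38 as builds. Which program counted reads, whether by strand and against which annotation release, they do not say. A label names genomic DNA as the molecule, but the extraction protocol names RNA.

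Gene identifiers were matched to GENCODE M21 (GRCm38; 99.5% matched), which gave 21897 coding genes. Coverage over bases that genes share enters each of them, and 12.4% of coding genes have over 10% of exonic bases inside exons of another gene ("shared bases"). A mean of 1 was taken as the expressed level. Means, SDs and counts were computed in Python 3 (pandas 2.3.3, NumPy 2.4.6). The text names the 25 highest nuclear coding genes and the mitochondrial ones; every corticotrope, hormone and melanotrope marker; the highest members at 1 or more of each other list (up to 8) or family (up to 5), with lower members for Pomc regulators, feedback receptors and DNA methylation; and the genes furthest apart between replicates. Some genes that this rule names are not reported here. Members and lists were chosen with earlier results of these data known, and genes below 1 outside those lists were named after their values were seen. The 27 lists hold 758 different genes, and 32 families were read beside them; 1 receptor of the lists, Mlnr, had no entry. The design held no test, so none was made; other levels, scalings, left-out libraries and left-out gene classes were tried as alternatives.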

Additional observations from a re-analysis of the deposited data

How the results depend on the processing

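The count of 7821 coding genes at the expressed level was 4974 at a level of 2 and 1846 at a level of 5, and stayed between 6464 and 10024 under the other 8 alternatives, among them either library left out (7785 and 7863). The 4932 coding genes listed at 0 became 8652 with a mean under 0.05 and 9421 with a mean under 0.1. The share of all signal in the 10 highest genes, 51.3%, fell to 16.5% with overlapping genes left out, since the top small RNA entries share bases. Pomc ranked 2nd in place of 3rd with overlapping genes left out, and also, in an alternative chosen after seeing the data, with histones, the Rn7s stretch and genes touching a higher gene left out. Over all lists and families 501 genes reached the level, and 207 did at a level of 5. Of the 59 lists and families, the count moved by over 1.5 times in 15 at a level of 0.5, 16 at 2, 33 at 5, 4 without overlapping genes, 1 without the mitochondrial genes and 1 without replicate 1; under both rescalings it moved in 0. Levels of the 5 corticotrope markers moved by no more than their SD under both rescalings; with 1 of 2 libraries left out this holds by construction and shows no stability. No paired analysis was possible because a single group was described and no result comes from a test. Depth is not given, so whether a gene listed at 0 lies under the limit of detection cannot be told, and 2 libraries give only a rough SD.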

Other observations

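Genes outside the lists were also high, and those given here were singled out after their values were seen. Resp18, a granule protein gene of endocrine cells, was at 77.1 and 77.8 and ranked 94th among nuclear coding genes. Klk1, a tissue kallikrein, was at 58.6 and 54.5. Fgf21, a metabolic hormone gene best known from liver, was at 32.0 and 32.4, above Tbx19 in both libraries. Irs4, an adaptor of insulin and growth factor signalling, was at 24.8 and 23.5, while its relatives Irs2 and Irs1 had means of 1.66 and 0.422, the last with shared bases. Elf3, an epithelial ETS factor, was at 18.6 and 16.7 and Rhox5, an X-linked homeobox gene of the reproductive tract, at 20.6 and 20.5. Asns (asparagine synthesis) was at 40.1 and 37.5, Slc7a5 (an amino acid carrier) at 36.0 and 34.0 and Atf4, a stress response factor, at 27.1 and 26.0. Of the serine synthesis enzymes, Psat1 was at 27.6 and 27.9 and Phgdh lower, at 9.74 and 9.33.

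Some neighbouring genes carried near-equal values. Runs of at least 5 neighbours within 5% of one another were counted in each library, so the same stretch can count once per library. The 15 runs held 87 genes, none of them among the 758 list genes. Shorter stretches, such as that of Def8 and the list gene Tubb3, fall outside this count. The longest run, 33 T cell receptor alpha segments from Trav5d-2 to Trav14n-1 on chromosome 14, was at 0.145 throughout in replicate 2 and listed at 0 in replicate 1. Clustered gamma protocadherin genes were near-equal in both libraries, at 7.44 to 7.45 and 7.06 to 7.07, and share exons. On chromosome 13, the 6 genes from Gm11281 to Gm11292 were at 2.02 or less in replicate 1 and 1.55 to 1.61 in replicate 2. Small nucleolar RNA genes inside introns of coding genes with a mean of at least 20 had a median of 0.193 times the signal of their host over 38 pairs. What these runs and ratios come from was not tested.

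The share of coding genes at 1 or more differed between chromosomes, from 24.5% of 902 genes on chromosome 14 to 47.0% of 513 on chromosome 18 among the autosomes. It was 30.2% on the X chromosome. With olfactory and vomeronasal receptors left out, chromosome 14 had 25.7% and chromosome 18 had 47.1%.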
